A study of Homo sapiens with 42 samples.

Results

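The enzymes that take glyceraldehyde 3-phosphate to lactate were followed in cells that carried different forms of the hypoxia-inducible factors HIF-1α and HIF-2α. The 9 genes were chosen by name, as the genes of the steps from GAPDH to lactate dehydrogenase (GAPDH, PGK1, PGAM1, ENO1, ENO2, ENO3, PKM, LDHA and LDHB). No measured value was a criterion, but earlier results of these data were known when they were chosen. They are 9 of 60609 genes in the count tables, and all 9 passed the low-count filter in both batches, so each is described below. Poly-A RNA-seq had been made in 786-O cells, an established clear cell renal carcinoma line that lacks VHL, the protein that marks HIF-α subunits for destruction, and that has no functional HIF-1α of its own. All 42 libraries came from these cells, so every group, WT included, kept its own HIF-2α or a tagged version of it. Batch 1 held 27 libraries in 9 groups of 3: WT, HIF-1β KIN and HIF-2α KIN, in which a V5-Halo tag had been knocked into the native gene and each of which is 1 clone (A21 and A31), and stable lines with exogenous V5-Halo-tagged HIF-1α or its forms HIF-1α R30E and HIF-1αDM (R170A-V191D), or HIF-2α or its forms HIF-2α R27E and HIF-2αDM (R171A-V192D). R30E and R27E are mutants in DNA binding and the DM forms are mutants in pairing with HIF-1β. The genotype field of the HIF-2αDM libraries names HIF-1α while their titles name HIF-2α, and they were used under their titles. Batch 2 held 15 libraries in 5 groups of 3: WT, HIF-1α, HIF-2α and the V5-Halo-tagged chimeras HIF-2α/1α (HIF-2α to residue 365, then HIF-1α residues 364 to 826) and HIF-1α/2α (HIF-1α to residue 363, then HIF-2α residues 366 to 870). In each chimera the structured N-terminal part, which binds DNA and HIF-1β, comes from the first-named protein, and the long intrinsically disordered region (IDR), which holds the activation domains, from the second. The exogenous genes were driven by the weak L30 promoter and had been integrated into WT cells by transposition. The stable lines made in this way were selected and kept under puromycin, while the WT group was not modified. The part of transfection and selection in the comparisons with WT was not tested.

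Glycolysis below triose phosphate is the stretch that yields ATP. GAPDH reduces NAD+, phosphoglycerate kinase and pyruvate kinase each make ATP, and lactate dehydrogenase turns pyruvate into lactate and so returns the NAD+ that GAPDH needs. Many genes of this stretch are known targets of HIF, which binds short sites with the core ACGTG or GCGTG near their starts, and clear cell renal carcinoma, where HIF stays on without hypoxia, is known for strong glycolysis. In this stretch LDHA and LDHB code for the subunits of lactate dehydrogenase, and ENO1, ENO2 and ENO3 for the enolases found in most tissues, in neurons and in muscle.

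The promoters of 4 genes are shown: PGK1 and ENO2, which differed most from WT in HIF-1α, LDHA, which rose in all 4 lines of batch 2, and LDHB, the sister gene of LDHA. PGAM1, which differed most with the IDR, is not shown because its window does not lie at its start. Each is the 250 bases before the start of the gene in RefSeq on GRCh38.p14, written 5′ to 3′ on the strand of the gene, with every ACGTG or GCGTG, on either strand, in capitals (overlapping matches run together, so that CACGTG is 1 stretch). The PGK1 window is chrX:78103998-78104247 on the plus strand, the ENO2 window chr12:6914330-6914579 on the plus strand, the LDHA window chr11:18394313-18394562 on the plus strand and the LDHB window chr12:21657843-21658092 on the minus strand.
PGK1: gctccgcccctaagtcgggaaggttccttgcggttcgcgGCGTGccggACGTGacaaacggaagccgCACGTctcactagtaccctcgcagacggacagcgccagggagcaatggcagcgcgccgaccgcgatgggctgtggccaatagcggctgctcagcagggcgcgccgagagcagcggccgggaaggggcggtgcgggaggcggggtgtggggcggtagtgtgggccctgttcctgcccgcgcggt
ENO2: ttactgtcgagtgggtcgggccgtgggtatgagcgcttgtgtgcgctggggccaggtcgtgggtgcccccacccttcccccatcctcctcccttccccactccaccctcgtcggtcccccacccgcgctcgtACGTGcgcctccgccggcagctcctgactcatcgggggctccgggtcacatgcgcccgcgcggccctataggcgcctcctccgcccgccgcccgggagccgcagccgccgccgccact
LDHA: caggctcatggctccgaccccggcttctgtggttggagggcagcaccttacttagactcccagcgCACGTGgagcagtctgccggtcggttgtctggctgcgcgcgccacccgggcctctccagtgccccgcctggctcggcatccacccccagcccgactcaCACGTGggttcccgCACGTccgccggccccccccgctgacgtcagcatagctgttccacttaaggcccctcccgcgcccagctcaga
LDHB: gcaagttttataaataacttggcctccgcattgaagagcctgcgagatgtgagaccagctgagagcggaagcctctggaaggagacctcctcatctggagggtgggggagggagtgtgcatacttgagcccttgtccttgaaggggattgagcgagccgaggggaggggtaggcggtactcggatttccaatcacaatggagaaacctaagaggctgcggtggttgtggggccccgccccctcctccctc
The PGK1 window holds 3 stretches of capitals between 211 and 179 bases before the start, within 1 short span. The LDHA window also holds 3, CACGTG at 185 and at 87 bases before the start and CACGT at 73, the ENO2 window holds 1, at 118, and the LDHB window holds none. All 9 genes had an entry, with 11 windows in all, and 6 of the 9 genes had a match in a window. Those with none were PGAM1, PKM and LDHB. Of the genes not printed, GAPDH, with 1 match, and PKM, with none in a window at its reference start, also rose in all 4 lines of batch 2. The PGAM1 window precedes a start that lies 1627 bases past that of its reference transcript, so it does not show that gene's own promoter. The GAPDH window also precedes a start past the reference start, by 747 bases. The ENO3 matches lie in a window whose start is 567 bases before the reference start, and the ENO3 window at the reference start held none. Of 35116 promoters of the same length in the table, 43.2% held at least 1 match and 5.56% held at least 3. These shares are per window, while the 6 of 9 counts genes with a match in any of the 11 windows. A match says only that the letters are there.

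The count tables held between 42377599 and 101186554 reads per library in batch 1 and between 76366799 and 109642159 in batch 2, and the 9 genes together took from 1.03% to 2.7% of each library of batch 1 and from 1.52% to 2.40% of each of batch 2. The exogenous genes were read on HIF1A and EPAS1 (the gene of HIF-2α). In batch 2 the mean HIF1A count was 291 in WT, 13059 in HIF-1α, 9551 in HIF-2α/1α, 9659 in HIF-1α/2α and 928 in HIF-2α. The mean EPAS1 count was 12523 in WT, 42214 in HIF-2α and 51034 in HIF-1α/2α. The high values went with the labels of these lines, while EPAS1 in HIF-1α and HIF-2α/1α is not given here. HIF-2α carries no exogenous HIF1A, and the cause of its higher HIF1A count than in WT was not tested. Each chimera carries only a part of HIF1A and of EPAS1, so these counts do not rank the lines by level of the exogenous gene. That level was not shown to be equal between the lines. Batch 1 gave HIF1A 2973 in HIF-1α, against 237 in WT, and EPAS1 43739 in HIF-2α, against 14188 in WT. The mutant lines are not part of the check given here, so it does not bear on the label of HIF-2αDM. Of the marker pairs for other cells, those for leukocytes, endothelium and muscle summed to at most 7.67 counts in any group, and the fibroblast pair was highest in WT in both batches, at 221 in batch 2 against 7.35 in HIF-1α/2α, which came from LUM. The neuron pair was highest in HIF-2α in both batches, at 1015 in batch 2 against 646 in WT, and the part of these markers in the results below was not tested. Within bulk RNA, fewer cells of a kind and less RNA per cell cannot be told apart.

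Per length, the order of the 9 genes in WT of batch 2 began with ENO1, at 2575 CPM (counts scaled to a fixed library size) per kilobase of its reference transcript. PKM followed at 2091 ± 85.5 and GAPDH at 2037 ± 32.0 (SD, n = 3), whose libraries overlapped, so these neighbours did not differ beyond their spread. LDHA stood at 722 CPM per kilobase, PGAM1 at 429, PGK1 at 154, ENO2 at 26.1, LDHB at 12.2 and ENO3 at 1.38. The PGK1 transcript used here is 4812 bases long, so its place depends on that annotation. In WT of batch 1 the same 3 genes led, with PKM at 2766, GAPDH at 2757 and ENO1 at 2432 CPM per kilobase, and LDHA at 235 ± 28.2 and PGAM1 at 229 ± 89.5 could not be told apart. Since the batches differed in extraction, library kit and read length, levels were compared only within a batch.

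Of the 9 genes, 7 rose in HIF-1α against WT in batch 2, 6 in HIF-2α/1α, 4 in HIF-2α and 7 in HIF-1α/2α ("rose" and "fell" mean an adjusted p of at most 0.01 in edgeR's quasi-likelihood test, n = 3 libraries a group). Over all 28652 genes tested, 9.31%, 8.77%, 13.4% and 13.7% rose in these comparisons. GAPDH, ENO2, PKM and LDHA were higher than WT in each of the 4 lines, and the rest of the list split the lines: PGK1 and PGAM1 were highest with HIF-1α and ENO1 with the forms that carry the HIF-1α structured part. The highest changes were those of ENO2, 5.25-fold in HIF-1α, and of PGK1, 2.69-fold in HIF-1α. With a fold of at least 2 as well, 4 genes passed in HIF-1α, 2 in HIF-2α/1α, 1 in HIF-2α and 2 in HIF-1α/2α, beside 3.91%, 2.99%, 5.47% and 5.12% of all genes. LDHB, 1 of the 9, fell in HIF-2α, where 14.0% of all genes fell. No member fell in HIF-1α, HIF-2α/1α or HIF-1α/2α, where 7.88%, 7.92% and 14.1% of all genes did: at an unadjusted p under 0.05 edgeR gave 1, 0 and 1 lower member, and DESeq2 called 0 in each. The median log2 change of the 9 genes was 0.47, 0.40, 0.39 and 0.63 in these lines, and that of all genes tested 0.03, 0.03, 0.07 and 0.08. All 4 lines were set against the same 3 WT libraries, so their values are given side by side and not as 4 independent results.

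**Figure D1:**
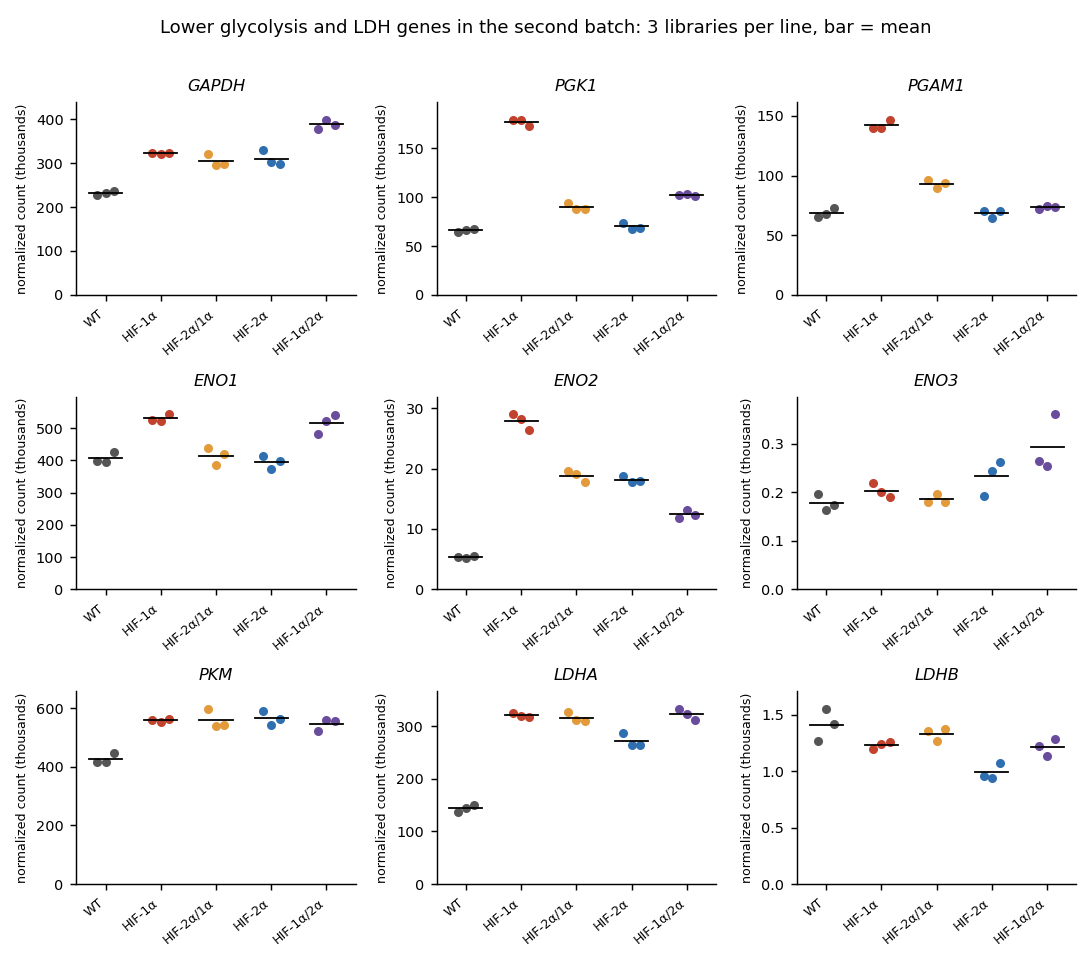
Normalized counts (in units of 1000, linear axis from 0) of the 9 genes in batch 2, with 1 panel per gene, 1 point per library and a bar at the mean of the 3 libraries of each group. PGK1 and PGAM1 are highest in the 3 HIF-1α libraries, GAPDH in the 3 HIF-1α/2α libraries, and LDHB is lowest in the 3 HIF-2α libraries.

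GAPDH, on chr12:6534512-6538374, oxidizes glyceraldehyde 3-phosphate and is the entry to the stretch. Its normalized count was 228706, 232860 and 235999 in WT, 322937, 321703 and 323741 in HIF-1α, and 379267, 399531 and 387216 in HIF-1α/2α. It was 321975, 296835 and 298965 in HIF-2α/1α and 330008, 303841 and 298041 in HIF-2α. All libraries of the 4 lines lay above all WT libraries, and the HIF-1α/2α libraries lay above the rest. GAPDH rose 1.39-fold in HIF-1α (log2 change 0.47, SE 0.0427, edgeR adjusted p = 2.49e-12), 1.32-fold in HIF-2α/1α, 1.34-fold in HIF-2α and 1.67-fold in HIF-1α/2α. A gene often used as a loading control was thus not level across these lines.

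PGK1 makes the first ATP of the pathway from 1,3-bisphosphoglycerate and is annotated on chrX:77910739-78129295. Its counts were 63893, 66347 and 67665 in WT and 179488, 178713 and 173175 in HIF-1α. They were 94538, 88283 and 87605 in HIF-2α/1α, 102280, 102866 and 101064 in HIF-1α/2α, and 73778, 67775 and 68930 in HIF-2α. The HIF-1α libraries stood far above all others, both chimeras lay between HIF-1α and WT, and the HIF-2α libraries lay just above those of WT. PGK1 rose 2.69-fold in HIF-1α (log2 change 1.42, SE 0.0455, adjusted p = 1.1e-27 by edgeR), 1.37-fold in HIF-2α/1α and 1.55-fold in HIF-1α/2α. In HIF-2α the log2 difference was 0.09, with a 95% interval of −0.01 to 0.19 (edgeR adjusted p = 0.128).

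PGAM1, the phosphoglycerate mutase of most tissues (chr10:97426191-97433444), moves the phosphate from carbon 3 to carbon 2. Its counts were 65036, 67835 and 73249 in WT, 139874, 139765 and 146958 in HIF-1α and 96030, 89467 and 93724 in HIF-2α/1α. In HIF-2α they were 70558, 64736 and 70508, and in HIF-1α/2α 71856, 74347 and 73774. The lines with the HIF-1α IDR lay above WT without overlap, while both lines with the HIF-2α IDR overlapped WT. PGAM1 rose 2.07-fold in HIF-1α (log2 change 1.05, SE 0.0478, edgeR adjusted p = 4.38e-22) and 1.35-fold in HIF-2α/1α (log2 change 0.44). The 95% interval of the log2 difference from WT was −0.11 to 0.10 in HIF-2α and −0.01 to 0.20 in HIF-1α/2α.

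Enolase takes water from 2-phosphoglycerate to give phosphoenolpyruvate, and ENO1 (chr1:8861000-8879190, minus strand) is its common form. ENO1 counts were 399087, 396718 and 426563 in WT, 527011, 521540 and 543531 in HIF-1α, and 481359, 522784 and 541562 in HIF-1α/2α. They were 437579, 385594 and 418550 in HIF-2α/1α and 413756, 372997 and 398871 in HIF-2α. The lines with the HIF-1α structured part lay above all others, and the lines with the HIF-2α structured part overlapped WT. ENO1 rose 1.30-fold in HIF-1α and 1.26-fold in HIF-1α/2α, and the log2 difference was 0.02 (95% interval −0.08 to 0.13) in HIF-2α/1α and −0.04 (−0.15 to 0.06) in HIF-2α.

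ENO2 (chr12:6913745-6923698) is the enolase best known from neurons, and it made the largest change of the 9 genes in every line of batch 2. Its counts were 5340, 5140 and 5461 in WT and 28990, 28274 and 26421 in HIF-1α. They were 19552, 19091 and 17722 in HIF-2α/1α, 18793, 17823 and 17886 in HIF-2α, and 11795, 13153 and 12373 in HIF-1α/2α. The order was HIF-1α, then HIF-2α/1α and HIF-2α, which overlapped, then HIF-1α/2α, then WT, with no other overlap. The log2 change was 2.39 in HIF-1α (SE 0.0558, edgeR adjusted p = 1.27e-32), 1.82 in HIF-2α/1α, 1.77 in HIF-2α and 1.23 in HIF-1α/2α. Beside these, the neuron pair of markers was also higher in HIF-2α, from RBFOX3, and its part in the ENO2 values was not tested. ENO3 (chr17:4948092-4957131), the muscle enolase, was low in all groups, at 164 to 197 counts in WT, 190 to 219 in HIF-1α, 180 to 196 in HIF-2α/1α, up to 263 in HIF-2α and 254 to 361 in HIF-1α/2α. It rose in HIF-1α/2α (log2 change 0.72, edgeR adjusted p = 0.000288), but not without HIF-1α/2α library 3, its highest value, where the log2 change was 0.55.

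PKM (chr15:72199029-72231819, minus strand) codes for pyruvate kinase, which makes the second ATP of the stretch. The counts were 418259, 417981 and 448463 in WT, 560288, 552404 and 564233 in HIF-1α, and 598721, 540829 and 541748 in HIF-2α/1α. In HIF-2α they were 591215, 542313 and 564222 and in HIF-1α/2α 523518, 561519 and 556213. Every library of the 4 lines lay above every WT library, and the 4 lines overlapped each other. PKM rose by log2 changes of 0.38, 0.39, 0.40 and 0.35 in the order HIF-1α, HIF-2α/1α, then HIF-2α and last HIF-1α/2α, the narrowest range of the genes that rose in all 4. The gene counts do not separate the M1 and M2 splice forms of PKM.

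LDHA (chr11:18394560-18408425) codes for the lactate dehydrogenase subunit that favours lactate. Its counts were 136515, 144725 and 150037 in WT, 326063, 319930 and 317891 in HIF-1α, and 326353, 312620 and 310079 in HIF-2α/1α. They were 333222, 322849 and 311550 in HIF-1α/2α and 286536, 264036 and 264435 in HIF-2α. HIF-1α and both chimeras lay together at 310079 or more, HIF-2α lay below them without overlap, and WT lay far below all. LDHA rose 2.23-fold in HIF-1α (log2 change 1.16, SE 0.0439, edgeR adjusted p = 5.06e-25), 2.20-fold in HIF-2α/1α, 2.24-fold in HIF-1α/2α and 1.89-fold in HIF-2α.

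LDHB (chr12:21635342-21757857, minus strand) codes for the subunit that favours pyruvate. Its counts were 1269, 1554 and 1420 in WT, 1198, 1242 and 1257 in HIF-1α and 1353, 1270 and 1378 in HIF-2α/1α. In HIF-2α they were 960, 944 and 1074, and in HIF-1α/2α 1222, 1136 and 1284. The HIF-2α libraries were the lowest of all 15. LDHB fell in HIF-2α, to 0.701 of WT (log2 change −0.51, SE 0.0843, edgeR adjusted p = 2.29e-06). The log2 differences of −0.20 in HIF-1α and −0.22 in HIF-1α/2α did not pass, with adjusted p of 0.0803 and 0.0342 by edgeR, but without WT library 1 the latter did, at −0.29.

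**Figure D2:**
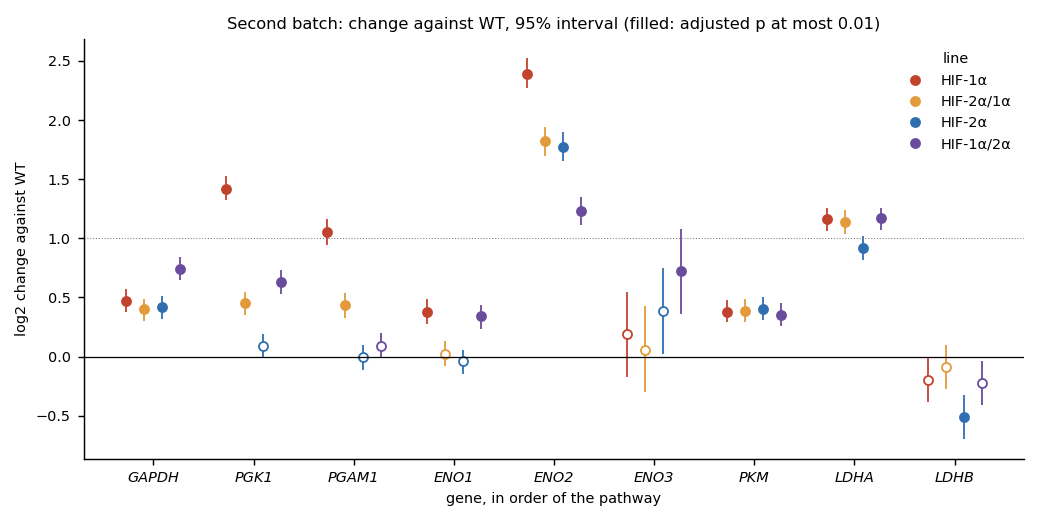
Log2 change against WT in batch 2 (vertical axis) for each of the 9 genes in pathway order, 1 colour per line, with the 95% interval as a bar, filled points for an adjusted p of at most 0.01 and a dotted line at 1. GAPDH, ENO2, PKM and LDHA have filled points above 0 in all 4 lines, PGAM1 only in the lines with the HIF-1α IDR, and ENO2 in HIF-1α is the highest point, at 2.39.

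Since the 4 lines of batch 2 cross 2 structured parts with 2 IDRs, the effect of each exchange was tested over 6 libraries against 6. Each 6 joined the libraries of 2 lines, so the p-values measure spread between libraries and not between lines. A difference between lines, or in level of the exogenous gene, cannot be told apart from the part exchanged. The same holds for the tests of the structured part and of single exchanges below. Going from the HIF-1α IDR to the HIF-2α IDR, 2 of the 9 genes rose and 5 fell, where 11.4% and 13.4% of all genes rose and fell. PGAM1 fell by 0.70 on the log2 scale (SE 0.0336, edgeR adjusted p = 1.13e-21), and all 6 libraries with the HIF-2α IDR lay below all 6 with the HIF-1α IDR. ENO2 fell by 0.61 and PGK1 by 0.58, with overlap between the 6 and the 6. LDHA fell by 0.11 and LDHB by 0.22 (edgeR adjusted p = 0.00498 and 0.00248), GAPDH rose by 0.14 and ENO3 by 0.43. ENO1 and PKM differed by −0.05 (95% interval −0.13 to 0.02) and −0.01 (−0.08 to 0.06). The LDHA call did not hold without HIF-1α library 1 or 2, HIF-2α/1α library 1, HIF-2α library 2 or 3, or HIF-1α/2α library 2 or 3, the LDHB call not without HIF-2α library 2 or HIF-1α/2α library 2, and the ENO3 call not without HIF-2α library 3 or HIF-1α/2α library 3.

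Going from the HIF-1α to the HIF-2α structured part, 5 of the 9 genes fell and none rose, where 5.83% and 5.62% of all genes fell and rose. At an unadjusted p under 0.05 edgeR gave 0 higher members, and DESeq2 also called 0. PGK1 fell by 0.76 on the log2 scale (SE 0.0317, edgeR adjusted p = 9.03e-23) and ENO1 by 0.37 (adjusted p = 5.48e-12), both with no overlap between 6 and 6 libraries. PGAM1 fell by 0.35, GAPDH by 0.20 and LDHA by 0.14. PKM differed by 0.03, with a 95% interval of −0.04 to 0.09. ENO2 differed by −0.01 (−0.10 to 0.07), but this value is the mean of opposite differences: with the HIF-1α IDR the mean count was 27895 on the HIF-1α structured part and 18788 on the HIF-2α structured part, and with the HIF-2α IDR it was 12440 and 18167, in neither case with overlap. Averaged in this way, ENO1 passed the test for the structured part and not that for the IDR, while PGK1 and PGAM1 passed both.

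**Figure D3:**
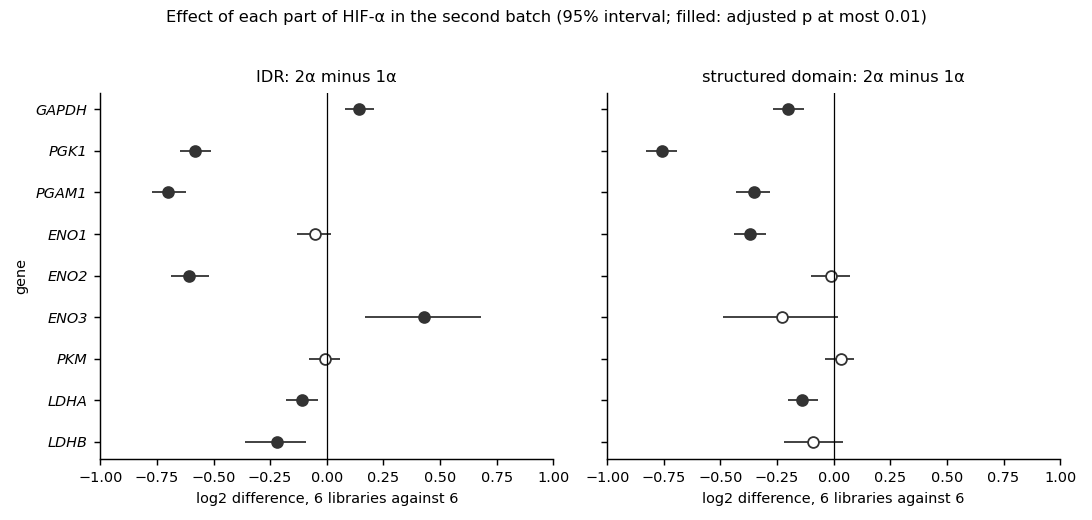
Log2 difference between HIF-2α and HIF-1α parts in batch 2 (horizontal axis) for each of the 9 genes, left for the IDR and right for the structured domain, 6 libraries against 6, with the 95% interval as a bar and filled points for an adjusted p of at most 0.01. PGK1 and PGAM1 are filled and left of 0 in both panels, ENO1 is filled in the structured-domain panel alone, and ENO2, whose value near 0 there is the mean of opposite differences, in the IDR panel alone.

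The size of the IDR effect was not the same on both structured parts. A test of the difference (interaction, the exchange on the HIF-2α structured part minus that on the HIF-1α structured part) passed for 4 of the 9 genes, where 5.38% of all genes passed. For ENO2 it was 1.12 on the log2 scale (SE 0.0750, edgeR adjusted p = 4.8e-15): the log2 difference between HIF-1α/2α and HIF-1α was −1.17, while HIF-2α and HIF-2α/1α differed by −0.05 (95% interval −0.17 to 0.07). For PGAM1 it was 0.52 and for PGK1 0.43, with exchanges of −0.96 and −0.80 on the HIF-1α structured part and of −0.44 and −0.36 on the HIF-2α structured part, so these genes fell in both settings and more so in the first. For GAPDH it was −0.25 (edgeR adjusted p = 0.00462), with GAPDH 0.27 higher on the first and 0.02 different (−0.07 to 0.12) on the second. That call did not hold without HIF-1α library 1 or 2, HIF-2α/1α library 1, HIF-2α library 2 or 3, or HIF-1α/2α library 2. LDHA and LDHB gave −0.23 and −0.40, which did not pass (edgeR adjusted p = 0.0118 and 0.0215).

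Set out by exchange, 2 of 9 genes rose and 3 fell in HIF-1α/2α against HIF-1α, where 9.37% and 11.0% of all genes did. GAPDH and ENO3 were those that rose, ENO3 at an edgeR adjusted p of 0.00953 that was lost without HIF-1α library 1, 2 or 3 or HIF-1α/2α library 3. Under some other normalizations, and without a low-count filter, only 1 gene rose there. PGK1, PGAM1 and ENO2 were those that fell. In HIF-2α against HIF-2α/1α, 4 genes fell (PGK1, PGAM1, LDHA and LDHB), where 8.61% of all genes fell, and none rose, where 7.52% did (0 by edgeR at an unadjusted p under 0.05 and 0 by DESeq2). LDHA and LDHB fell by 0.22 and 0.43 on the log2 scale there (edgeR adjusted p = 9.92e-05 and 0.000111), and their differences between HIF-1α/2α and HIF-1α were 0.01 (95% interval −0.09 to 0.10) and −0.02 (−0.21 to 0.17).

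Because ENO2 with ENO1, and LDHA with LDHB, are alternative forms of 1 enzyme, their ratio per kilobase was followed in each library. In WT of batch 2 the log2 ratio of ENO2 to ENO1 was −6.59, −6.64 and −6.65, that is about 0.0101 ENO2 transcripts per ENO1 transcript. It was −4.55, −4.57 and −4.73 in HIF-1α, −4.85, −4.70 and −4.93 in HIF-2α/1α, −4.83, −4.75 and −4.84 in HIF-2α and −5.72, −5.68 and −5.82 in HIF-1α/2α. All 4 lines lay above WT, and HIF-1α/2α lay below the other lines. With 3 libraries against 3, an exact permutation test (two-sided) gave p = 0.1 for each line against WT, the smallest that it can give. The 6 libraries with the HIF-2α IDR against the 6 with the HIF-1α IDR differed by −0.55 on the log2 scale (exact permutation p = 0.0346, 0.1 after adjustment over 10 tests), with overlap. Each 6 joined libraries of different lines, and HIF-1α/2α stood apart as a line, so the libraries were not independent and this p can be too small. Between HIF-2α and HIF-2α/1α the ratios overlapped, while HIF-1α/2α lay below HIF-1α. The adjusted 0.1 equals the smallest p of the tests against WT, which are among the 10.

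The log2 ratio of LDHA to LDHB was 5.97, 5.76 and 5.94 in WT, or 59.3 LDHA transcripts per LDHB transcript. It was 7.31, 7.23 and 7.20 in HIF-1α, 7.13, 7.16 and 7.03 in HIF-2α/1α, 7.44, 7.35 and 7.16 in HIF-2α and 7.31, 7.37 and 7.14 in HIF-1α/2α. The lines reached ratios between 138 and 159, all above WT and overlapping each other. Against WT the exact permutation test again gave its smallest value, p = 0.1, and the IDR difference was 0.12 (exact permutation p = 0.0866, 0.1 adjusted). The limits given for the IDR test of ENO2 to ENO1 hold for this p as well. The log2 ratio was above that of WT by 1.36 in HIF-1α, 1.22 in HIF-2α/1α, 1.43 in HIF-2α and 1.38 in HIF-1α/2α, of which the log2 change of LDHA made 1.16, 1.14, 0.92 and 1.17 and the lower LDHB counts the rest.

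**Figure D4:**
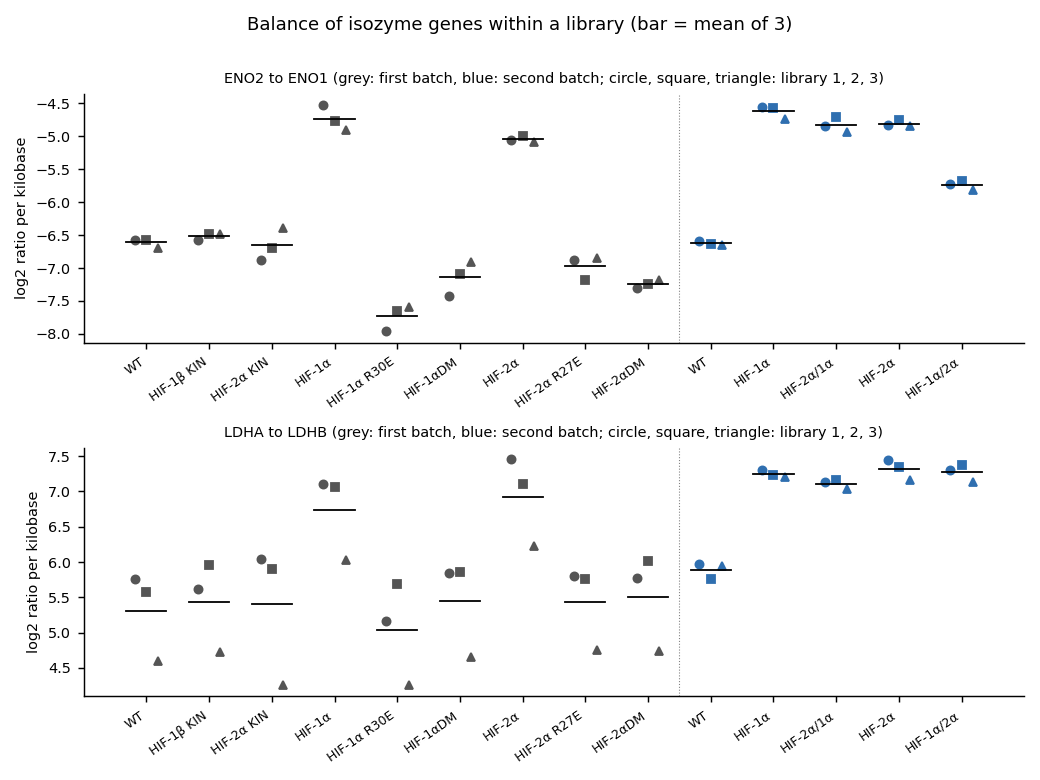
Log2 ratio per kilobase of ENO2 to ENO1 and of LDHA to LDHB, with a circle, square and triangle for libraries 1, 2 and 3 and a bar at their mean, for the 9 groups of batch 1 (grey) and the 5 of batch 2 (blue). ENO2 to ENO1 is higher in HIF-1α and HIF-2α than in WT in both batches, HIF-1α R30E has the lowest mean, −7.73, and in batch 1 library 3 is the lowest for LDHA to LDHB in all 9 groups.

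Batch 1 held the tagged clones, the DNA-binding mutants and the dimerization mutants beside the full-length forms. Its replicates were less alike than those of batch 2, and the libraries numbered 3 stood apart. PGAM1 and PGK1 were lowest in library 3 in 9 of 9 groups and LDHB highest in 9 of 9, with PGAM1 at 0.398 to 0.618 of the mean of libraries 1 and 2 and LDHB at 1.28 to 2.97 of it. The libraries numbered 3 were also deeper, at 72801922 to 101186554 reads against 42377599 to 76188914 in the others, and the part of depth or of any shared handling was not tested. The results of batch 1 are therefore also given without them, a choice made after seeing the data. Fits with a term for the library number are given in the closing section, and in several comparisons more members passed there.

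In HIF-1α of batch 1, ENO2 and LDHA rose (2 of 9, where 3.76% of all genes rose). ENO2 counts were 4021, 3895 and 3378 in WT and 23463, 15321 and 13180 in HIF-1α, and LDHA counts 39339, 31467 and 33075 in WT and 82330, 76406 and 79606 in HIF-1α, in both cases with no overlap. ENO2 changed by 2.20 on the log2 scale (SE 0.217, edgeR adjusted p = 5.66e-08) and LDHA by 1.20 (SE 0.238, adjusted p = 0.00114), the latter not past the threshold without WT library 2. PGK1 counts were 36106, 24819 and 19102 in WT and 105506, 61117 and 52654 in HIF-1α, and PGAM1 counts 36357, 29482 and 15559 in WT and 71947, 65784 and 42593 in HIF-1α. Neither gene overlapped WT, and both were lowest in library 3 in each group, so much of the spread within groups ran with the library number. In the fit without a term for that number, log2 differences of 1.45 and 1.15 had edgeR adjusted p of 0.0129 and 0.120. Without the libraries numbered 3, all 4 genes rose, PGK1 by 1.51 (adjusted p = 6.09e-05), ENO2 by 2.35, LDHA by 1.22 and PGAM1 by 1.12 (adjusted p = 0.000213).

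In HIF-2α of batch 1, ENO2 and LDHA rose too (2 of 9, where 5.02% of all genes rose). ENO2 counts in HIF-2α were 12562, 8894 and 9780, and LDHA counts 79276, 72157 and 46586. All were above those of WT, and LDHA library 3 was well below the other two. The log2 changes were 1.47 for ENO2 (edgeR adjusted p = 1.33e-05) and 0.93 for LDHA (adjusted p = 0.00759), and without the libraries numbered 3 they were 1.46 and 1.12. The LDHA call was lost without WT library 1, 2 or 3 or HIF-2α library 1 or 2. PGK1 counts in HIF-2α, 29632, 20999 and 15320, overlapped those of WT, as did PGAM1 counts of 38138, 31672 and 16392. HIF-2α was below HIF-1α for 1 member, PGK1, by a log2 difference of −1.73 (edgeR adjusted p = 0.00438), where 1.74% of all genes were lower. That call was lost without HIF-1α library 1 or HIF-2α library 2 or 3, while without all libraries numbered 3 it held and PGAM1 (−1.01) and ENO2 (−0.88) were also lower.

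**Figure D5:**
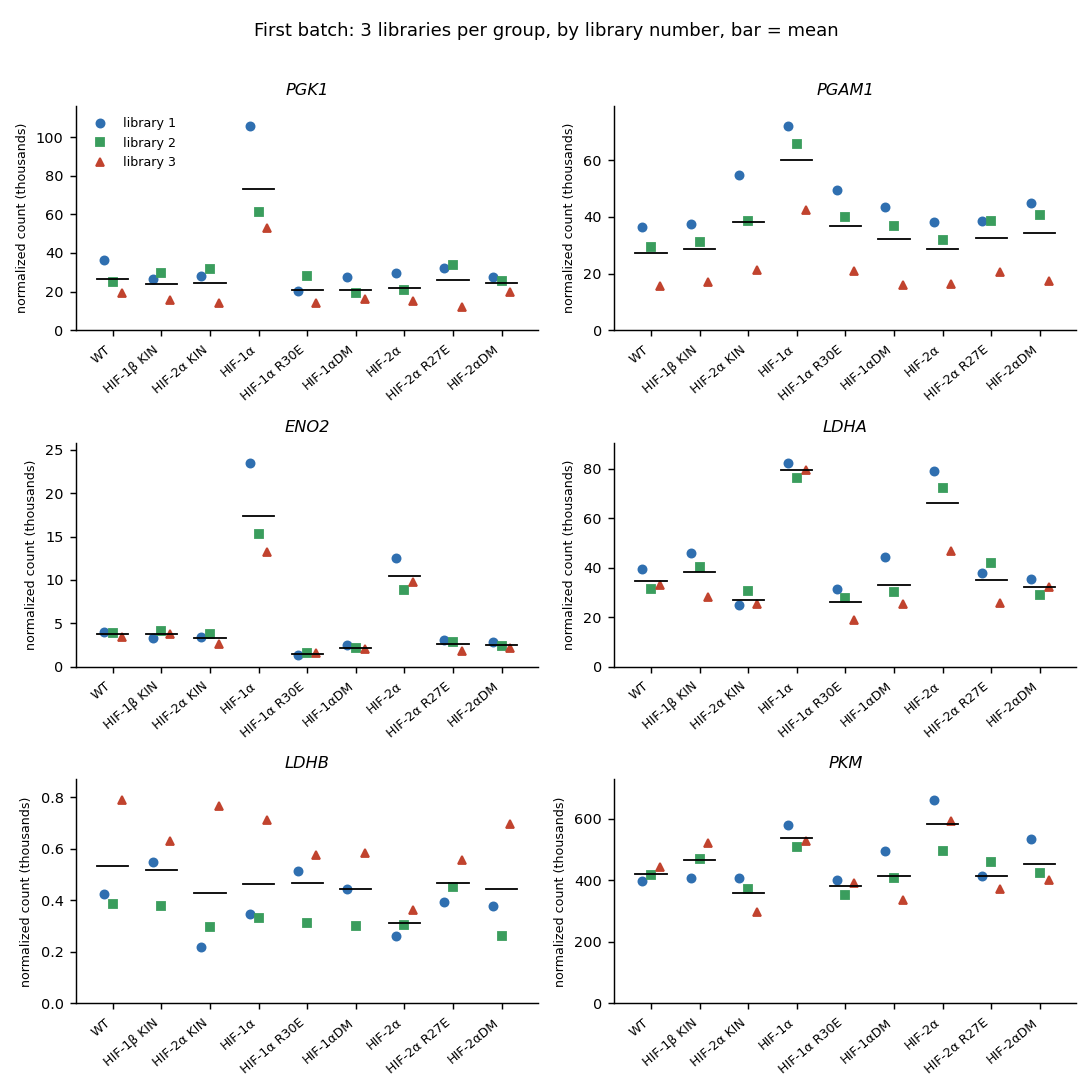
Normalized counts (in units of 1000, linear axis from 0) of PGK1, PGAM1, ENO2, LDHA, LDHB and PKM in the 9 groups of batch 1, with a circle, square and triangle for libraries 1, 2 and 3 and a bar at the mean of 3. ENO2 and LDHA are high in HIF-1α and HIF-2α, PGK1 in HIF-1α, and the triangle is lowest for PGAM1 and highest for LDHB in all 9 groups.

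In the fit without a term for the library number, edgeR called none of the 9 genes higher than WT in the mutants or the KIN clones (0 also at an unadjusted p under 0.05, and 0 by DESeq2). Of all genes, between 0.468% (HIF-1αDM) and 3.25% (HIF-2α KIN) were higher in these groups, with 2.41% in HIF-1α R30E. At such shares 0 of 9 is close to what all genes would give. In HIF-1α R30E, 1 member fell, where 0.952% of all genes fell: ENO2, whose counts of 1320, 1649 and 1619 lay below all WT counts (log2 change −1.30, SE 0.211, edgeR adjusted p = 0.000152, and −1.37 without the libraries numbered 3). In HIF-1αDM the ENO2 counts were 2473, 2163 and 2025, in HIF-2α R27E 3131, 2854 and 1860 and in HIF-2αDM 2916, 2376 and 2223. These too lay below all WT counts, but edgeR called no member in these 3 groups, where 0.476%, 0.523% and 0.506% of all genes passed in either direction. At an unadjusted p under 0.05 edgeR gave 1 lower member in each, and DESeq2 called 0. In HIF-1β KIN and HIF-2α KIN, where 1.78% and 5.92% of all genes passed, edgeR and DESeq2 also called 0 members, with 1 and 0 lower members at an unadjusted p under 0.05. ENO2 counts in the KIN clones were 3305, 4138 and 3736 and 3445, 3824 and 2574, which overlapped WT.

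Against its own DNA-binding mutant, HIF-1α raised 3 of 9 genes, where 1.65% of all genes were higher: ENO2 by 3.50 on the log2 scale, 11.3-fold (edgeR adjusted p = 5.93e-11), PGK1 by 1.81 (adjusted p = 0.004) and LDHA by 1.60 (adjusted p = 6.98e-05). Against HIF-1αDM the same 3 genes were higher, where 1.35% of all genes were: ENO2 by 2.96, PGK1 by 1.81 and LDHA by 1.26. PGK1 counts were 20284, 28127 and 14251 in HIF-1α R30E and 27310, 19466 and 15919 in HIF-1αDM, all below the lowest HIF-1α count. The PGK1 calls were lost without HIF-1α library 1, and also without HIF-1α R30E library 1 or 3 in the first comparison and without HIF-1αDM library 1, 2 or 3 in the second, where the LDHA call was lost without HIF-1αDM library 2 or 3.

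HIF-2α was above HIF-2α R27E for ENO2 (1 of 9, where 2.83% of all genes were higher), by 1.99 on the log2 scale (edgeR adjusted p = 2.22e-07). LDHA differed there by 0.91 (edgeR adjusted p = 0.0127) and by 0.94 without the libraries numbered 3, where it passed. Above HIF-2αDM were ENO2, by 2.06, and LDHA, by 1.04 (2 of 9, where 3.21% of all genes were higher). The LDHA call was lost without HIF-2α library 1 or 2 or HIF-2αDM library 1, 2 or 3. LDHA counts were 37876, 41804 and 25597 in HIF-2α R27E and 35326, 28976 and 32098 in HIF-2αDM, each below the lowest of HIF-2α.

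The responses in the separate batches were set against each other in 1 fit. For HIF-1α no member differed between batches (edgeR, 0 at an unadjusted p under 0.05 and 0 by DESeq2, beside 0.00378% of all 26488 genes), and for HIF-2α likewise (0 and 0, beside 0% of all genes). The differences ran from −0.26 to 0.30 for HIF-1α and from −0.23 to 0.62 for HIF-2α on the log2 scale, and intervals were wide: for PGK1 in HIF-1α the difference was −0.19, with a 95% interval of −0.92 to 0.53. ENO2 in HIF-1α differed by 0.03 (−0.47 to 0.52).

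Among themselves, the 9 genes did not move as 1 block over the 15 libraries of batch 2. The closest pairs by Pearson's r of log2 values were PKM with LDHA (0.925) and PGK1 with PGAM1 (0.911), and the farthest was PKM with LDHB (−0.528), as a description of libraries that share lines. Over the same libraries the gene most like PGK1, of 14020 genes compared, was PGM1, which links glucose 1-phosphate and glucose 6-phosphate, with r = 0.982 (0.933 over the 27 libraries of batch 1), followed by PDK1 (0.960 and 0.687), the kinase that holds pyruvate back from the mitochondrial pyruvate dehydrogenase. The gene most like ENO2 was PRSS23 (0.988, but 0.250 in batch 1), followed by FER1L4 (0.980 and 0.801), and the gene most like LDHB was ATP5F1C (0.961, but −0.243 in batch 1).

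The rest of the pathway was read from lists of genes that feed or drain the stretch. Of 11 genes of upper glycolysis, 8 rose and 1 fell in HIF-1α of batch 2 (all genes: 9.31% and 7.88%), 7 and 1 in HIF-2α/1α (8.77% and 7.92%), 6 and 2 in HIF-2α (13.4% and 14.0%) and 6 and 3 in HIF-1α/2α (13.7% and 14.1%). In HIF-1α the largest changes were those of the aldolase ALDOC (3.68 on the log2 scale), the hexokinase HK2 (1.19) and the aldolase ALDOA (1.11). Going to the HIF-2α IDR, 2 of these genes rose (HK2 and PFKP) and 5 fell (ALDOC, GPI, HK1, PFKM and TPI1), beside 11.4% and 13.4% of all genes. The glucose transporters SLC2A1 and SLC2A3 rose in all 4 lines, by 0.38 and 0.43 in HIF-1α, and both rose with the HIF-2α IDR, with a median of 0.94. In batch 1, 4 of the 10 upper glycolysis genes tested rose in HIF-1α and 3 in HIF-2α, beside 3.76% and 5.02% of all genes.

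Of 17 genes for the fate of pyruvate and lactate, 4 rose and 7 fell in HIF-1α, 4 and 5 in HIF-2α/1α, 3 and 10 in HIF-2α and 4 and 11 in HIF-1α/2α. The shares of all genes are those just given, and the 3 that rose in HIF-2α are close to what 13.4% of all genes would give. PDK1 rose by 1.80 and SLC16A3, the lactate exporter MCT4, by 0.86 in HIF-1α, and SLC16A7, the carrier MCT2, fell by 0.92. With the HIF-2α IDR 2 of these genes rose and 11 fell, beside 11.4% and 13.4% of all genes. Of the other isozymes of the 9 genes' steps, 9 were tested and 2 rose in HIF-1α, LDHD and PGAM4 (9.31% of all genes), and BPGM fell by 0.40 (7.88%). LDHD, which acts on D-lactate, was at 1.99 to 5.73 counts in WT and 22.6 to 34.6 in HIF-1α, so that its level in WT was close to the floor of 3 counts. PGAM4 lies within the annotated span of PGK1 on the opposite strand and resembles PGAM1, so its rise cannot be told apart from reads of those genes.

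Reads were counted without strand and only where they mapped to 1 place, and this touches some of the 9 genes. Rows of GAPDH pseudogenes (62 in the annotation) held 1.74% to 2.63% of the GAPDH count in batch 2 and 0.276% to 0.881% in batch 1, and those of LDHB held 3.29% to 7.59% and at most 2.10%, so a part of these genes' reads can be missing from the values. In the annotation ENO3 overlaps PFN1 on the opposite strand, ENO2 overlaps LRRC23 and PGK1 overlaps ATP7A. LDHB overlaps the protein-coding gene ENSG00000285854 and LDHA the noncoding gene ENSG00000256006, both on the same strand. The part of these overlaps in the counts, and so in the ratio of LDHA to LDHB, was not tested. ENO3, with its low counts, is the least certain of the 9. The median log2 change of all genes on the members' own chromosomes lay between −0.09 and 0.25 in the lines of batch 2 against WT and between −0.27 and 0.42 in batch 1, so changes of that size are within what whole chromosomes showed.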

How the data were processed

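Poly-A RNA-seq of 786-O cells was deposited as 1 table of raw gene counts per library. Per the submitters' notes, the authors aligned the reads to hg38 with STAR 2.7 (unique hits only, per the study's methods), handled them with SAMtools 1.9 and counted them with HTSeq 0.11.1, per the study's methods in union mode and without strand. Reads shared by near-identical copies or by overlapping exons are therefore lost, and reads from opposite strands cannot be told apart. Libraries were grouped by their titles. The 9 genes and all gene lists were chosen with earlier results of these data known.

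Counts were normalized by TMM within each batch (factors 0.822 to 1.16 in batch 1 and 0.963 to 1.03 in batch 2) and are given as normalized counts at the mean depth of the batch. A mean normalized count of 0.5 or more was required, which left 23313 and 28652 of 60609 genes, and these were tested with edgeR 4.0.16 (glmQLFit and glmQLFTest, limma 3.58.1, R 4.3.3), with all groups of a batch in 1 fit and Benjamini-Hochberg adjustment over all genes tested. A gene passed at an adjusted p of at most 0.01 and was counted again with a fold of at least 2, as in the study. The script was tested on simulated data. Ratios of isozymes used exact permutation tests (scipy 1.17.1, two-sided). A value of 3 counts, the floor used here, corresponds to 0.0313 to 0.0706 CPM in batch 1 and 0.0271 to 0.0399 in batch 2. Intervals are 95% intervals, and p-values measure the spread between 3 libraries a group, which the study calls biological replicates.

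All 9 genes were named by rule. From each other list, up to 3 genes with the largest change among those that passed in HIF-1α were given values, and the genes most like PGK1, ENO2 and LDHB were those of highest r among genes with a mean count of at least 50. Promoters came from RefSeq GRCh38.p14 and gene positions from a GENCODE annotation of hg38. Alternatives were DESeq2 1.42.0 with its own size factors, RLE factors, library totals, other count filters, fits of the compared groups only, TMM without the 9 genes, the replicate number as a block and leaving out each library.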

Additional observations from a re-analysis of the deposited data

Results flagged for a closer look

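The effect of exchanging the IDR differed between the structured parts for 4 of the 9 genes in batch 2 (interaction in edgeR's quasi-likelihood fit, adjusted over all genes, HIF-2α structured part minus HIF-1α structured part). On the log2 scale the difference was 1.12 for ENO2, 0.52 for PGAM1 and 0.43 for PGK1, each with a weaker fall, or none that passed, on the HIF-2α structured part. It was −0.25 for GAPDH, which passed on the HIF-1α structured part alone, and this call depended on single libraries.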

How the results depend on the processing

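In batch 2 the number of members that passed, in either direction together, stayed within 1.5 times the value given under every setting run. By direction, without 1 library the members that fell with the HIF-2α IDR went from 5 to 3 (without HIF-2α library 2 or HIF-1α/2α library 2), those that rose from 2 to 1 there and in HIF-1α/2α against HIF-1α, and those with a negative interaction from 1 to between 0 and 2 (up to 3 with the replicate block). In HIF-1α/2α against HIF-1α the number that rose was also 1 with RLE factors, TMM without the 9 genes, library totals alone or no low-count filter. In batch 1 libraries of the same number deviated together: the mean correlation of their deviations from the group means was 0.149, 0.156 and 0.430 for numbers 1, 2 and 3, against −0.121 for different numbers, and 24 of 27 libraries were closest to their own number (9 of 15 in batch 2). The labels do not say what a number stands for, and the lowest pair of number 1 stood at −0.100, so the fits without the block are those given above. Spread that runs with the number stays in their SE: for PGAM1 in HIF-1α against WT it was 0.437 without the block and 0.129 with it. With the replicate block, 4 members passed in HIF-1α against WT, 1 in HIF-2α KIN (PGAM1), 1 in HIF-1αDM (ENO2), 2 in HIF-2α against HIF-2α R27E and 3 in HIF-2α against HIF-1α. In these, PGK1 (1.45, edgeR adjusted p = 1.22e-06) and PGAM1 (1.21, 1.59e-08) rose in HIF-1α against WT, PGAM1 was higher in HIF-2α KIN (0.48, 0.00743) and ENO2 lower in HIF-1αDM (−0.76, 0.00546). PGAM1 also passed in HIF-1α against HIF-1α R30E (0.77, 8e-05) and against HIF-1αDM (1.00, 1.41e-06). Without a low-count filter, and again without the libraries numbered 3, the counts were 4 in HIF-1α against WT, 2 in HIF-2α against HIF-2α R27E and 3 in HIF-2α against HIF-1α. With library totals alone 1 passed in HIF-2α against WT and 1 against HIF-2αDM. HIF-2α against HIF-2α R27E also gave 2 with RLE factors, 3 with DESeq2 and 2 with a mean count of at least 10. The block added LDHA (−0.23) and LDHB (−0.41) to the interaction in batch 2 and changed no other call there. The cause was not tested for any of these.

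Leaving out 1 library at a time gave 1 to 3 members in HIF-1α against WT, 1 to 2 in HIF-2α against WT, 1 to 3 in HIF-1α against HIF-1αDM, 1 to 2 in HIF-2α against HIF-2α R27E and against HIF-2αDM, and 0 to 1 in HIF-2α against HIF-1α. Values near 0 changed sign: ENO1 in HIF-2α/1α against WT ran from −0.02 to 0.07, the IDR effect on PKM from −0.03 to 0.02 and the structured-domain effect on ENO2 from −0.03 to 0.01, none of which passed. The IDR difference in the ratio of ENO2 to ENO1 ran from −0.66 to −0.44 and that in LDHA to LDHB from 0.09 to 0.15, on either side of an exact permutation p of 0.05. The IDR effect on LDHA (−0.11) was lost with a mean count of at least 10, that on ENO3 with library totals alone (0.38), and the GAPDH interaction with RLE factors (−0.23) or a mean count of at least 10.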
